A study of Mus musculus with 4 samples.

Results

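A set of 6 families of long terminal repeats, counted by the small RNAs that carry their sequence, was examined in testes of 16-day-old mice. They were LTR91, ERVB5_2-LTR_MM, RLTR20B3, MLT2F, RLTR30B_MM and RLTR19C. These 6 of the 615 LTR families in the table were chosen because their reads of 25 to 31 nt, the length of piRNAs, were near 0 in knockdown replicate 1 and plentiful in the other 3 libraries. The low level in that library therefore describes the choice, and no test of it is given. Of the 615 families, 273 averaged at least 10 RPM, that is reads per 1000000 reads counted in a library, and all 6 members were among these. Their reads came to 45702, spread over 4072 distinct sequences of the 423925 in the LTR class.

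Total RNA of testis served for 4 libraries, 2 from mice with a knockdown of Hsf5 and 2 from wild-type mice, each labelled as a biological replicate. The study asked how piRNAs change when Hsf5, a transcription factor of meiotic germ cells, is depleted. The labels do not give the strain, the means of the knockdown or the cells it acts in, and the deposited table names the same libraries as knockouts. They also do not say whether a library came from 1 animal or from several. Exact matches to Hsf5 transcripts numbered 21 and 28 reads in the knockdown libraries, against 43 and 28 reads in the wild-type libraries. Such fragments do not measure the mRNA, so the degree of knockdown was not checked by these data.

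A long terminal repeat is the regulatory end of an endogenous retrovirus or a related element, and most copies in the mouse genome are solitary and old. Members of the ERVK, ERV1 and ERVL superfamilies carry names such as RLTR, ERVB and MLT2. In the testis, pachytene spermatocytes transcribe long non-coding precursors from a limited set of piRNA loci and cut them into piRNAs, which PIWI proteins bind. Fragments of transposons lie within these precursors, so a piRNA can carry the name of a repeat family because the precursor runs through 1 copy of it. Many such loci come in pairs that are read in opposite directions from a shared promoter region.

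The libraries held 9619666 and 10900306 counted reads in knockdown replicates 1 and 2, and 11117460 and 9260452 in wild type replicates 1 and 2. Reads of 29 to 31 nt took 8.25% and 24.2% of all reads in the knockdown libraries, and 17.0% and 18.3% in the wild-type libraries. Knockdown replicate 1 thus stood apart in its long piRNAs. Marker miRNAs were counted per 1000000 mature miRNA reads. The spermatocyte list summed to 8437 and 7698 in the knockdown libraries, against 6250 and 10460 in the wild-type libraries. In that list 5 of 6 miRNAs were detected, and miR-449c-5p was at 0 in every library. The spermatogonia list summed to 2866 and 1306 in the knockdown, against 2558 and 2727 in the wild type, with all 7 detected. The list for somatic testis and muscle, with all 6 detected, lay between 47527 and 50113 in the knockdown and between 49421 and 51478 in the wild type. The blood list, with all 5 detected, lay between 196 and 275 in the knockdown and between 229.6 and 261 in the wild type. Knockdown replicate 1 was the lowest library in the list for somatic testis and muscle, the highest in the spermatogonia and blood lists, and within the range of the others in the spermatocyte list. The part of these lists and of the length profile in the results was not tested. In bulk libraries of this kind, fewer cells of a type and less RNA per cell cannot be told apart.

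Most reads with 1 place in the genome came from a single copy in each family, and the stretch of that copy around its most-read piRNA is shown for that reason. The sequences are the RNA strand, written with T for U, from GRCm39 chromosome 5, with the most-read piRNA in capitals. The stretches lie at chr5:149748155-149748276 (minus strand, LTR91), chr5:113476211-113476295 (minus, ERVB5_2-LTR_MM), chr5:113493654-113493773 (plus, RLTR20B3), chr5:149726651-149726770 (minus, MLT2F), chr5:113469301-113469420 (minus, RLTR30B_MM) and chr5:113474413-113474532 (minus, RLTR19C).
LTR91: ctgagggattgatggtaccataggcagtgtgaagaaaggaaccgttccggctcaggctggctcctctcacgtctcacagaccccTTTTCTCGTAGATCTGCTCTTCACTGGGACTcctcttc
ERVB5_2-LTR_MM: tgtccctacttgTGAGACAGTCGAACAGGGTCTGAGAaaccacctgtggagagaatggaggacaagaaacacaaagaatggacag
RLTR20B3: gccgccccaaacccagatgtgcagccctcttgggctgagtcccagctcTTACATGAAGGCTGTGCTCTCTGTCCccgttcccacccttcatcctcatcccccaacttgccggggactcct
MLT2F: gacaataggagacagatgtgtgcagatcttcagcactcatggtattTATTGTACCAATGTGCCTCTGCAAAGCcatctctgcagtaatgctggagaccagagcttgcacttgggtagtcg
RLTR30B_MM: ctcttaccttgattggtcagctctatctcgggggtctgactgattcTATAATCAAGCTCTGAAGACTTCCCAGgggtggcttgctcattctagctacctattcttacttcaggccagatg
RLTR19C: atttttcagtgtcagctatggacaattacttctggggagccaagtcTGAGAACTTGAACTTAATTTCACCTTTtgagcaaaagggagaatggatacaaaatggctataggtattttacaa

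All 6 most-read piRNAs open with T, which stands for the U typical of a primary piRNA. The LTR91 stretch is the whole interval that its reads covered, while the others show 85 to 120 nt of longer intervals. The most-read sequences of LTR91 and RLTR19C show how the reads of 1 copy relate to each other. Capitals mark the stretch shared with another of the same family's 3 most-read sequences.
LTR91 1: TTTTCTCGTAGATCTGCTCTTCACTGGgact
LTR91 2: TTTTCTCGTAGATCTGCTCTTCACTG
LTR91 3: TTTTCTCGTAGATCTGCTCTTCACTGG
RLTR19C 1: tgagaacttgaacttaatttcaccttt
RLTR19C 2: TGGACAATTACTTCTGGGGAGCCAAGTc
RLTR19C 3: TGGACAATTACTTCTGGGGAGCCAAGT

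The LTR91 sequences share their first base and differ in where they end. The second RLTR19C sequence ends at the base directly before the first one starts, so the first and second follow each other head to tail on the precursor.

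In knockdown replicate 1 the 6 families stood at between 1.21% and 3.11% of the lowest other library. LTR91, whose superfamily the table gives only as LTR, had 4.68 and 507.6 RPM in the knockdown libraries, against 386 and 565 RPM in the wild-type libraries. In reads these were 45 and 5533 in the knockdown, against 4296 and 5231 in the wild type. The knockdown averaged 256 ± 356 RPM and the wild type 476 ± 126 RPM (SD, n = 2 each), so the spread within the knockdown was larger than the difference of the means.

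The 3 ERVK families had the same shape. ERVB5_2-LTR_MM had 0.832 and 98.3 RPM in the knockdown libraries, against 63.1 and 114 RPM in the wild-type libraries. RLTR20B3 had 2.91 and 198 RPM in the knockdown, against 132 and 189.8 RPM in the wild type. RLTR19C had 2.29 and 227 RPM in the knockdown, against 115 and 177 RPM in the wild type. In each of them knockdown replicate 1 was low and the other 3 libraries were high.

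MLT2F, the ERVL member, had 6.45 and 396 RPM in the knockdown libraries, against 207 and 389 RPM in the wild-type libraries. RLTR30B_MM, the ERV1 member, had 2.49 and 267 RPM in the knockdown, against 139 and 234 RPM in the wild type. Again 1 knockdown library was low. Summed, the 6 families had 19.6 and 1693 RPM in the knockdown, against 1043 and 1669 RPM in the wild type. Their share of the 25 to 31 nt reads of the LTR class was 0.0311% and 2.05% in the knockdown, and 1.53% and 2.18% in the wild type.

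The low levels rest on few reads. The exact 95% Poisson interval of LTR91 in knockdown replicate 1 ran from 3.41 to 6.26 RPM, and that of ERVB5_2-LTR_MM, with 8 reads, from 0.359 to 1.64 RPM. PCR copies of 1 molecule were not marked, so such intervals cover counting error only.

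**Figure D1:**
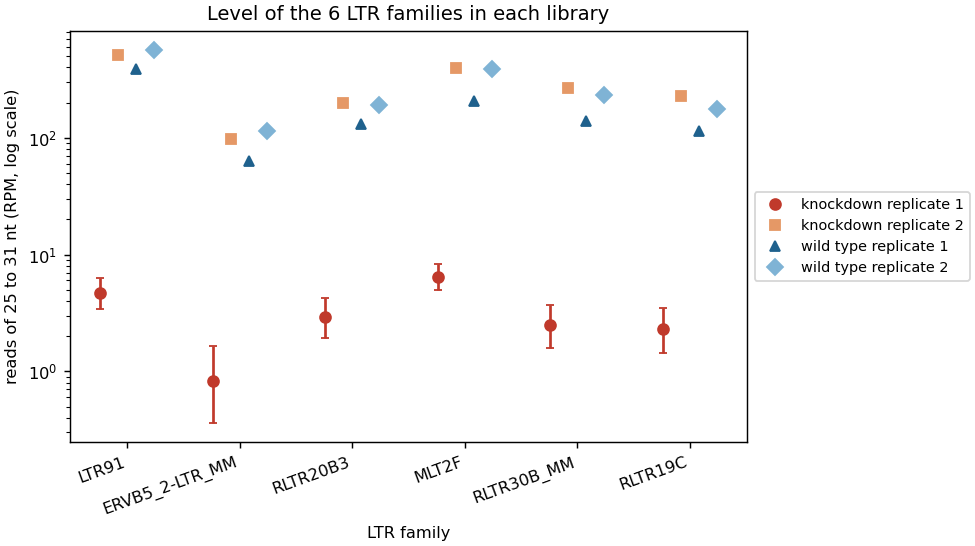
Level of each LTR family in reads of 25 to 31 nt (RPM, log scale), with a point for each library and exact 95% Poisson intervals on knockdown replicate 1. The 6 points of knockdown replicate 1 lie between 0.832 and 6.45 RPM, and all other points lie at 63.1 RPM or above.

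Knockdown replicate 2 did not share the loss. It lay above both wild-type libraries in RLTR20B3, MLT2F, RLTR30B_MM and RLTR19C, and between them in LTR91 and ERVB5_2-LTR_MM. Its level was between 131% and 197% of the lower wild-type library. A place above both wild-type libraries was common, held by 160 of the 273 LTR families (58.6%), so 4 of 6 is near the background. The rest of the LTR class, without the 6 families, had 63107 and 80729.5 RPM in the knockdown, against 66976 and 74723 RPM in the wild type. Knockdown replicate 1 was the lowest library there too, by a smaller margin.

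Over all libraries the contrast of knockdown with wild type gave no call. By the quasi-likelihood test of edgeR, adjusted after Benjamini and Hochberg, 0 of 793 families of LTR, LINE and SINE elements passed an adjusted p of 0.05 (0.0%). At an unadjusted p under 0.05, 10 families were higher and 6 lower in the knockdown, and with DESeq2 0 families passed the adjusted threshold, with 4 higher and 5 lower unadjusted. The log2 differences of the members, knockdown over wild type, were −1.09 for LTR91, −1.02 for ERVB5_2-LTR_MM, −0.88 for RLTR20B3, −0.75 for MLT2F, −0.66 for RLTR30B_MM and −0.54 for RLTR19C. Their standard errors lay between 2.07 and 2.28 and were larger than the differences. The median over all families was −0.01.

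Where the reads came from was not itself a criterion of the choice, but it was not independent of it. A family read from many copies, most of them kept in knockdown replicate 1, could hardly have been chosen. A high share of reads in 1 copy can thus follow in part from the choice, and the shares below are a description. Of the 45702 reads, 38825 matched GRCm39 exactly at 1 place, 2439 at several and 4411 at none. Of the reads with 1 place, 37327 (96.1%) lay in 6 intervals, 1 for each family. The best place held a median of 96.9% of a member's single-place reads, and more than 75% in all 6. Over the 267 other LTR families at 10 RPM or more, the best place held a median of 43.7%, and more than 75% in 58 of them. The single-place reads of a member were thus mostly those of 1 copy, although for ERVB5_2-LTR_MM only 38.2% of all reads had 1 place. These intervals are the stretches covered by reads, not the annotated limits of the repeat.

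The LTR91 copy and the MLT2F copy lay in the piRNA locus 5-qG3-23659, which runs on the minus strand of chromosome 5 from 149713537 to 149755054. The LTR91 interval, 122 nt long and partly exonic in the lncRNA gene Gm21221, held 13692 reads, or 99.9% of the family's single-place reads. It had 38 and 5080 reads in the knockdown libraries, against 3879 and 4695 reads in the wild-type libraries. The MLT2F interval (149726183 to 149726800) lay in an intron of Gm21221 and held 98.6%. It had 25 and 3865 reads in the knockdown, against 1970 and 3161 reads in the wild type.

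Another 3 copies lay in 5-qF-14508, on the minus strand from 113468321 to 113487961, which overlaps the lncRNA gene 4930405N21Rik. The ERVB5_2-LTR_MM interval (113475833 to 113476295, intronic) had 0 and 387 reads in the knockdown, against 261 and 385 reads in the wild type. The RLTR19C interval (113474398 to 113474811, intronic) had 0 and 2177 reads in the knockdown, against 1092 and 1385 reads in the wild type. The RLTR30B_MM interval (113469138 to 113469612, exonic) had 0 and 1897 reads in the knockdown, against 1080 and 1486 reads in the wild type. Knockdown replicate 1 thus had no read with 1 place in any of these intervals.

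The RLTR20B3 copy (113493419 to 113493935, plus strand, intergenic) lay in 5-qF-14224, the partner locus that runs the other way from 113488004 to 113524740. It had 0 and 1861 reads in the knockdown libraries, against 1232 and 1371 reads in the wild-type libraries. A count of 0 at this depth allows up to 3 reads, or 0.312 RPM. On that floor the level in knockdown replicate 1 was at least 355-fold lower than the lowest other library for RLTR20B3, 315-fold for RLTR19C, 311-fold for RLTR30B_MM and 75.3-fold for ERVB5_2-LTR_MM. All 6 copies were read on the strand of their locus. Reads of the opposite strand within the intervals numbered 32 for RLTR20B3, 23 for RLTR19C, 16 for LTR91 and 4 for MLT2F, with 0 for ERVB5_2-LTR_MM and RLTR30B_MM.

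Reads named after the loci had the same pattern as the LTR copies within them. Here and below, the level of a locus counts only piRNA-length reads named after a piRNA locus. Reads given the name of an LTR family are not in it. In piRNA-length reads, 5-qF-14508 had 1.25 and 5238 RPM in the knockdown, against 3224 and 5583 RPM in the wild type. Its partner 5-qF-14224 had 1.56 and 6464 RPM in the knockdown, against 4438 and 7324 RPM in the wild type. The third, 5-qG3-23659, had 79.4 and 10719 RPM in the knockdown, against 5603 and 9846 RPM in the wild type. Of the single-place reads with either kind of name in these loci, the members gave 5.23%, 2.81% and 7.44%, in the same order. The locus levels hold none of the members' reads and rest on other sequences.

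The loss ran along the loci wherever a bin had enough reads to be counted. In bins of 500 nt with at least 10 RPM on average, all 72 bins of the 5-qF pair and all 71 bins of 5-qG3-23659 were under 5% of the lowest other library in knockdown replicate 1, with highest values of 1.12% and 2.90%. The members sat at different distances within this stretch. From the midpoint between the 5-qF loci, RLTR20B3 lay 5.70 kb to 1 side, and ERVB5_2-LTR_MM, RLTR19C and RLTR30B_MM lay 11.9, 13.4 and 18.6 kb to the other. From the 5' end of 5-qG3-23659, LTR91 lay 6.84 kb and MLT2F 28.6 kb downstream.

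**Figure D2:**
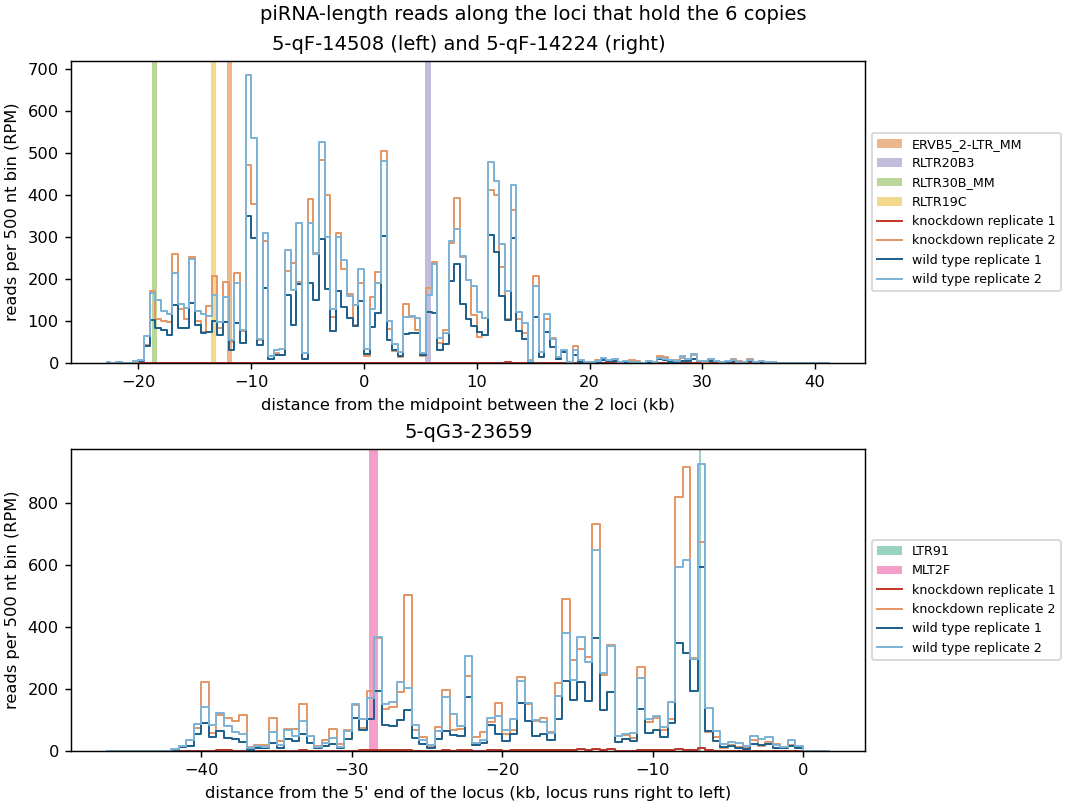
Reads of 25 to 31 nt per 500 nt bin (RPM) along the 5-qF pair, by distance from the midpoint between the loci in kb, and along 5-qG3-23659, by distance from its 5' end in kb, with a line for each library and shaded bands at the 6 LTR copies. The line of knockdown replicate 1 runs along the zero line in both panels, while the other 3 libraries rise and fall together.

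A pair of families had a lesser second copy. RLTR30B_MM had 14.1% of its single-place reads at 94138426 to 94138809 on the minus strand of chromosome 8, in the locus 8-qC5-2209. That copy had 7 and 356 reads in the knockdown libraries, against 147 and 232 reads in the wild-type libraries. The locus itself had 393 and 915 RPM in the knockdown, against 421 and 649 RPM in the wild type, so knockdown replicate 1 was at 93.5% of the lowest other library. RLTR20B3 had 5.83% at 54168764 to 54169340 on the plus strand of chromosome 9, opposite to the gene Cyp19a1, in the locus 9-qA5.3-1495. That copy had 0 and 77 reads in the knockdown, against 62 and 147 reads in the wild type. Its locus had 0 and 128 RPM in the knockdown, against 105 and 226 RPM in the wild type. A family with a well-kept second copy was less likely to be chosen. The low counts of both copies in knockdown replicate 1 thus follow in part from the choice.

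Many reads of ERVB5_2-LTR_MM could not be put at 1 place. Its reads with several places numbered 1423, and 885 of them had the chromosome 5 copy among their places. For RLTR30B_MM 532 of 584 such reads, and for RLTR19C 292 of 299, had their main copy among them. For ERVB5_2-LTR_MM the share of reads in 1 copy thus describes the smaller part of its reads.

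Knockdown replicate 1 kept 189 reads of the 6 families, in 116 distinct sequences. Outside the main intervals, single-place reads summed to 97 and 537 reads in the knockdown libraries, or 10.1 and 49.3 RPM, against 372 and 492 reads, or 33.5 and 53.1 RPM, in the wild-type libraries. Inside them the sums were 6.55 and 1401 RPM in the knockdown, against 856 and 1348 RPM in the wild type. The gap in knockdown replicate 1 was narrower outside the main copies than inside. For LTR91, reads outside its copy were 0.416 and 0.367 RPM in the knockdown, against 0.450 and 0.324 RPM in the wild type. These were 4 and 4 reads in the knockdown, against 5 and 3 reads in the wild type, too few to show whether there was a gap. For RLTR30B_MM they were 2.08 and 34.3 RPM in the knockdown, against 15.4 and 25.6 RPM in the wild type, and for RLTR20B3 2.18 and 11.3 RPM in the knockdown, against 9.53 and 20.9 RPM in the wild type. Summed over the 4 libraries these 2 families held most of the reads outside the main copies, and both were low there in knockdown replicate 1. The choice went by the whole family's level, so this too follows in part from it. For MLT2F they were 2.81 and 1.93 RPM in the knockdown, against 4.32 and 3.78 RPM in the wild type.

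The residual reads differed in kind between families. Of the 45 LTR91 reads of knockdown replicate 1, 38 lay in the main copy, and 22 of the 25 sequences were also found in another library. Of its 62 MLT2F reads, 25 lay in the main copy. For RLTR19C, 12 of the 22 reads were 1 sequence placed on chromosome 11 in the locus 11-qE1-9443, which had 2881 and 4837 RPM in the knockdown, against 2166 and 3785 RPM in the wild type.

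Loci near 0 in knockdown replicate 1, here under 5% of the lowest other library, numbered 28 of 214. They held a median of 98.0% of the members' single-place reads, against a median of 2.74% over the 267 other LTR families. All 214 piRNA loci together held a median of 98.8% for the members and 71.6% for the others. Among the other families, 86 had more than 10% and 23 more than 50% of their single-place reads in those 28 loci. Both the loci and the members were picked by their values in knockdown replicate 1, so these shares are a description.

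**Figure D3:**
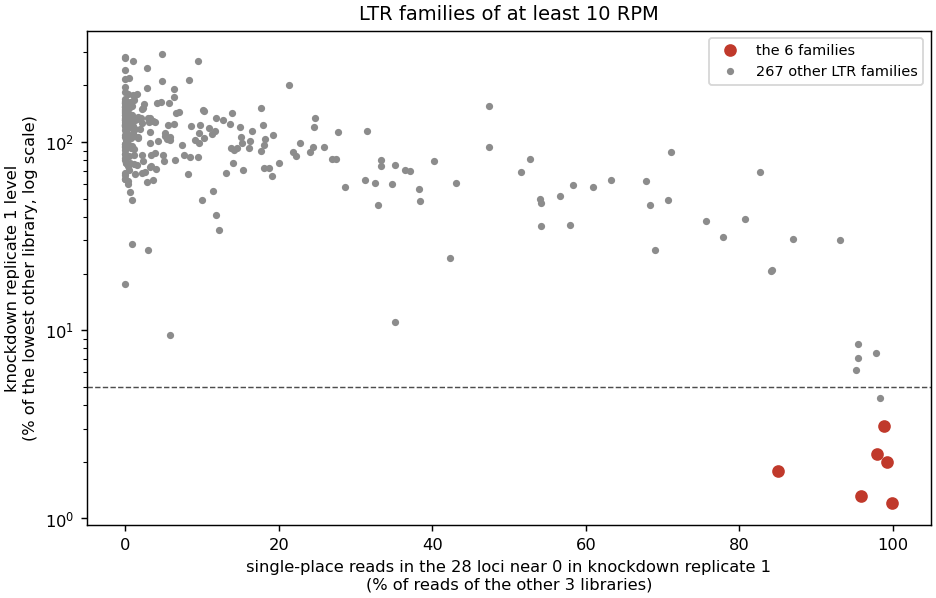
Level in knockdown replicate 1 as a percentage of the lowest other library (log scale) against the share of single-place reads from the other 3 libraries that lay in the 28 loci, for the 273 LTR families of at least 10 RPM, with a dashed line at 5%. The 6 families sit at the lower right, and most of the 267 others sit at the left near 100%.

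Families just outside the choice were also low in knockdown replicate 1. Of the 273 LTR families, 7 (2.56%) were under 5% of the lowest other library in knockdown replicate 1, the 6 members and MLT1F-int at 4.34%. MLT1F-int had 1.98 and 62.4 RPM in the knockdown, against 45.5 and 73.0 RPM in the wild type. It was followed by RLTR13D2 at 6.13%, MLT1K at 7.11%, RLTR10E at 7.603% and MLT1J1 at 8.44%. The other families had a median of 102%, with quartiles of 73.3% and 133%.

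The same 5 families were the ones most alike to the members over the 4 libraries. Likeness was the Euclidean distance between centred log2(RPM + 1) profiles and the members' median profile, and ran from 1.13 for RLTR13D2 to 1.66 for MLT1J1. That profile holds the low value by which the members were chosen, so the overlap of the 2 lists follows in large part from the choice. Between 94.2% and 97.8% of the single-place reads of these families lay in the 28 loci. Families and loci were both picked by knockdown replicate 1, so this too is a description. RLTR13D2 had 5.09 and 166 RPM in the knockdown, against 83.1 and 139.6 RPM in the wild type.

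Among families with related names and enough reads, none was under 5% in knockdown replicate 1, as in nearly all other LTR families. By name stem (RLTR19, RLTR20, RLTR30, ERVB5 and MLT2) there were 38 relatives, of which 13 averaged at least 10 RPM. Of these 13, 0 were under 5%, beside 1 of all 267 other LTR families, so 0 of 13 is near the background. Their median was 102%, the same as over the other LTR families, with a range of 46.2% to 174%. RLTR20B2 had 18.2 and 53.3 RPM in the knockdown, against 26.4 and 49.6 RPM in the wild type. RLTR19-int, the lowest of them, had 81.9 and 177 RPM in the knockdown, against 183 and 178 RPM in the wild type. MLT2B5 had 559 and 761 RPM in the knockdown, against 547 and 565 RPM in the wild type. Relatives of RLTR30B_MM and ERVB5_2-LTR_MM did not reach 10 RPM. The stem of LTR91 was not in that list, and LTR91A averaged 1.12 RPM, too low to be read in the same way.

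Most reads opened with U, the usual first base of piRNAs. U, written as T in the table, opened 89.4% and 94.3% of the reads of the 6 families in the knockdown libraries, and 92.3% and 92.3% in the wild-type libraries. In the other LTR families it opened 85.5% and 87.2% in the knockdown, and 83.9% and 85.0% in the wild type. The 6 families averaged 92.1 ± 2.03% and the others 85.4 ± 1.38% (SD, n = 4). The difference of 6.69 ± 1.96 percentage points had the same direction in 4 of 4 libraries, and an exact two-sided sign-flip permutation test gave p = 0.13, the smallest value that 4 libraries allow. A median of 98.8% of the members' single-place reads lay in piRNA loci, against 71.6% for the others. The choice favoured families read from such loci, so the difference can follow in part from it. The 4 libraries compare the same 6 families, so they do not repeat it over other families.

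The share that opened with U varied between families and, in knockdown replicate 1, rested on few reads. In LTR91 it was 91.1% and 96.9% in the knockdown, against 94.2% and 95.7% in the wild type. In RLTR30B_MM it was 87.5% and 89.0% in the knockdown, against 87.1% and 86.3% in the wild type. In RLTR19C it was 100% (22 of 22 reads) and 95.5% in the knockdown, against 94.6% and 93.5% in the wild type. ERVB5_2-LTR_MM stood lowest, with 37.5% and 87.4% in the knockdown, against 83.2% and 83.6% in the wild type. The first of these was 3 of 8 reads, with an exact Clopper-Pearson 95% interval of 8.52% to 75.5%.

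A at base 10 is the hallmark of piRNAs made by mutual cutting of both strands. In the sum of the 6 families it took 36.0% and 38.4% of reads in the knockdown and 38.7% and 38.5% in the wild type, beside 30.5% and 32.5% in the knockdown and 34.0% and 33.3% in the wild type for the other LTR families. The families lay on both sides of that level, and the sum was carried by LTR91, with 55.6% and 67.6% in the knockdown and 57.8% and 57.7% in the wild type. Over all libraries A at base 10 took 61.3% of the reads in LTR91, 38.3% in ERVB5_2-LTR_MM, 34.2% in MLT2F, 31.4% in RLTR19C, 17.2% in RLTR20B3 and 16.6% in RLTR30B_MM, beside 32.7% in the other LTR families. The sequences from its most-read 5' end, shown above, have A at that base.

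Reads of the 6 families were shorter in knockdown replicate 1, as were those of other LTR families. Of its 189 reads, 63 were single-place reads of the main copies. In knockdown replicate 2 these were 15267 of 18457, and in the wild type 9514 of 11599 and 12483 of 15457. The lengths thus compare reads that came in part from different places. Lengths of 25 to 28 nt took 87.8% and 63.7% of the reads in the knockdown, and 64.4% and 67.3% in the wild type. In the other LTR families they took 80.9% and 61.5% in the knockdown, and 66.0% and 66.8% in the wild type. Mean lengths of the 6 families were 26.7 and 27.9 nt in the knockdown and 27.9 and 27.7 nt in the wild type. Their difference from the other LTR families was 0.0118 ± 0.256 nt (SD, n = 4 libraries), with an exact two-sided sign-flip permutation p of 1, and was negative in knockdown replicate 1 and positive in the other 3.

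The families differed in length among themselves. LTR91 had 73.3% and 54.5% of its reads at 25 to 28 nt in the knockdown, against 57.1% and 61.5% in the wild type. RLTR19C had 100% and 77.2% in the knockdown, against 75.4% and 77.3% in the wild type. RLTR20B3 had 100% and 78.1% in the knockdown, against 74.2% and 72.6% in the wild type. In the 3 libraries with many reads, LTR91 thus carried more reads of 29 to 31 nt than RLTR19C and RLTR20B3, the lengths that in the mouse are bound mainly by MIWI, while shorter piRNAs are bound mainly by MILI.

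**Figure D4:**
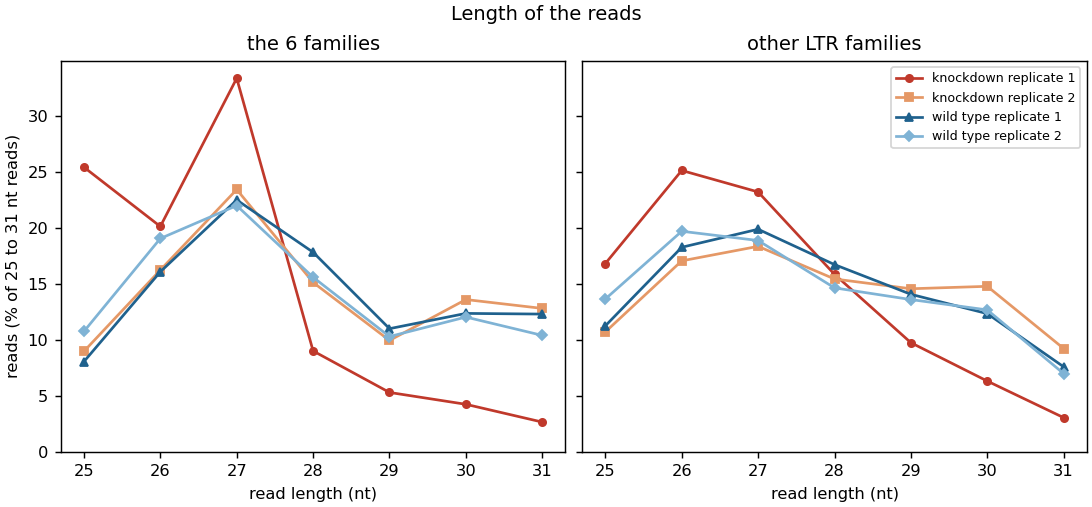
Share of reads at each length from 25 to 31 nt (%) in the 6 families and in the other LTR families, with a line for each library. Knockdown replicate 1 is weighted to short lengths in both panels, with 87.8% of the reads of the 6 families and 80.9% of the others at 25 to 28 nt.

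At lengths above those of piRNAs knockdown replicate 1 was low as well, while below them it was nearer to the other libraries. At 32 to 47 nt the 6 families summed to 0.416 and 87.3 RPM in the knockdown, against 52.3 and 54.9 RPM in the wild type. At 16 to 24 nt they summed to 69.0 and 150.5 RPM in the knockdown, against 111 and 234 RPM in the wild type. RLTR20B3 had 32.6 and 28.99 RPM at those short lengths in the knockdown, against 31.4 and 54.3 RPM in the wild type, so knockdown replicate 1 lay within the range of the others. LTR91 had 3.22 and 22.8 RPM there in the knockdown, against 16.6 and 36.8 RPM in the wild type.

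Whether few or many sequences carried the reads differed from family to family. RLTR19C and LTR91 were the most concentrated. For RLTR19C the number of sequences that together held 50% of the reads was 1 and 4 in the knockdown, against 7 and 12 in the wild type. Its leading sequence took 54.5% and 30.6% of the reads in the knockdown, against 24.3% and 18.2% in the wild type. The leader of knockdown replicate 1 was the sequence on chromosome 11 and not the one shown above, which had 0 and 755 reads in the knockdown, against 311 and 297 reads in the wild type.

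In LTR91 the reads gathered on 1 start. The number of sequences for 50% of its reads was 5 and 6 in the knockdown, against 10 and 10 in the wild type. Its leading 5' end, at 149748192, took 52.6% and 54.4% of the reads of the copy in the knockdown, against 42.1% and 42.3% in the wild type. Reads from that end had every length from 25 to 31 nt. Its most-read sequence of 31 nt had 1 and 762 reads in the knockdown, against 451 and 488 reads in the wild type.

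RLTR20B3, RLTR30B_MM and MLT2F were intermediate. RLTR20B3 needed 7 and 10 sequences for 50% of its reads in the knockdown, against 14 and 18 in the wild type. MLT2F needed 11 and 22 in the knockdown, against 32 and 30 in the wild type. The 5' end with most of its reads over all libraries took 16.0% and 16.6% of the reads of the copy in the knockdown, against 10.4% and 10.3% in the wild type. RLTR30B_MM needed 5 and 27 sequences in the knockdown, against 20 and 24 in the wild type.

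ERVB5_2-LTR_MM was spread over the most sequences in the 3 libraries with many reads. It needed 2 and 31 in the knockdown, against 38 and 39 in the wild type, and its leading sequence took 37.5% and 4.10% of the reads in the knockdown, against 3.70% and 4.25% in the wild type. Low numbers in knockdown replicate 1 go with read counts of 8 to 62 per family, which cannot hold many sequences.

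**Figure D5:**
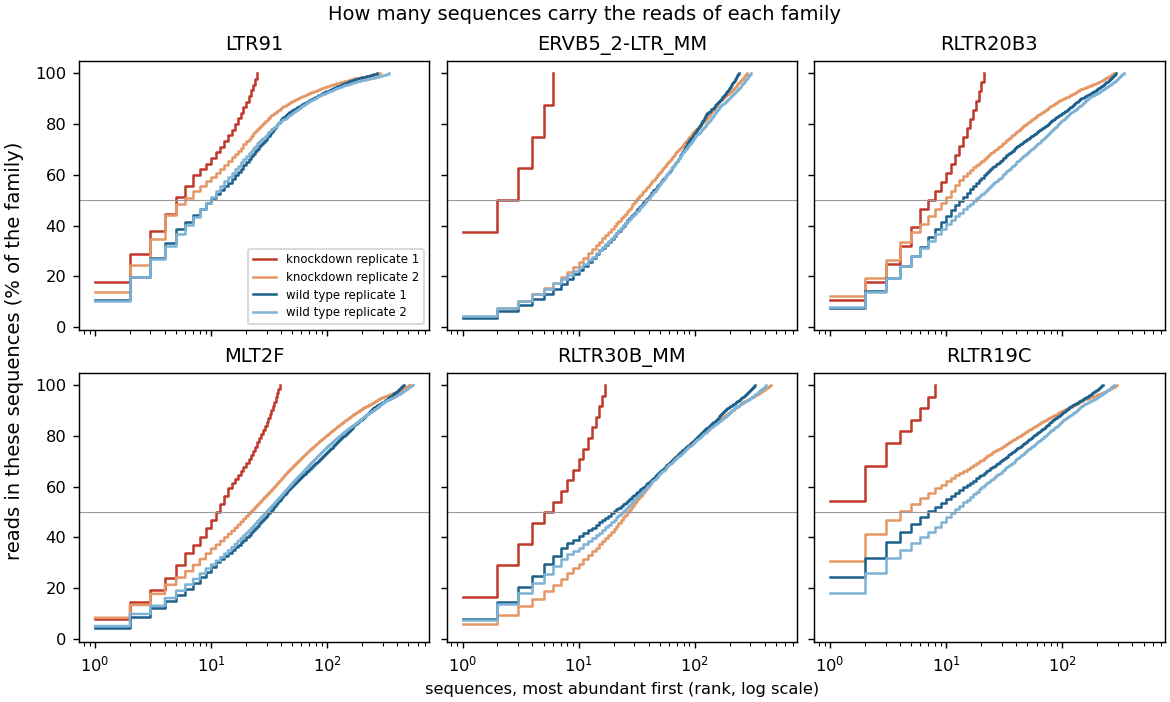
Cumulative share of a family's reads (%) against the rank of its sequences, most abundant first (log scale), with a panel for each family and a line for each library. The curves of RLTR19C and LTR91 reach 50% within 12 sequences in all libraries, while that of ERVB5_2-LTR_MM needs 31 to 39 in the 3 libraries with many reads.

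The 3 libraries with many reads held largely the same molecules. Of the 549 LTR91 sequences, 132 were found in knockdown replicate 2 and both wild-type libraries, and these held 95.2% of the family's reads in knockdown replicate 2, against 93.8% and 92.5% in the wild type. Of the 543 RLTR19C sequences, 85 were found in all 3 and held 82.9% in knockdown replicate 2, against 81.8% and 77.4% in the wild type. For ERVB5_2-LTR_MM it was 95 of 555 sequences, with 66.1% in knockdown replicate 2, against 65.2% and 65.2% in the wild type. Of the 10 leading sequences of a family in each of these libraries, between 3 and 7 were common to all 3.

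The head-to-tail order of the RLTR19C sequences was marked among the members. Of the 4631 reads within its copy on the strand of the locus, 547 (11.8%) ended directly before its leading 5' end, the second most used of 173 3' ends. In the other 5 families that share was between 0% and 0.314%.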

How the data were processed

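Small RNA of 18 to 40 bases was sequenced from 4 testis libraries, per the labels' protocol. The deposited table gave the authors' raw read counts per sequence, library and annotation, and a ratio, the authors' scaling factor (0.512, 0.539, 0.499 and 0.716 in knockdown replicates 1 and 2 and wild type replicates 1 and 2), which equals 1000000 divided by mature miRNA reads and was used only as an alternative. The submitters' processing notes name Cutadapt and the build mm39. For the aligner and its mismatches, nothing is stated in the sources used here. Of 12700077 lines, repeats of a sequence in a library were dropped, leaving 6208912 pairs, and each of the 4496542 sequences was given the name and class with most reads over the libraries. Replicates were not copies of 1 library: the chi-square of their transposon family counts, divided by its degrees of freedom, was 200.1 for the knockdown pair and 79.4 for the wild-type pair.

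Sequences were matched exactly to GRCm39, the same assembly as mm39, and annotated with GENCODE M39. All single-place reads of piRNA cluster names lay within the locus so named. Reads joined into 1 interval where gaps were at most 1000 nt. Families at 1 CPM in at least 2 libraries were tested with edgeR 4.0.16 (robust quasi-likelihood F test, TMM factors, Benjamini-Hochberg adjustment) and DESeq2 1.42.0. Of these, only the edgeR test was also run on simulated data. The standard error is the log2 difference divided by the square root of F. Alternatives were other scalings, filters, lengths, names, counting of distinct sequences, reads with 1 place, a replicate block and leaving out each library. With 2 libraries a group, the edgeR and DESeq2 p-values rest on the spread between these samples and on a spread shared over families.

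The members, lists and tests were chosen with earlier results of these data known. The rule named all 6 members, their 3 most-read sequences, the 5 other LTR families of at least 10 RPM lowest in knockdown replicate 1, the 5 most alike, relatives by name stem (no stem was listed for LTR91), and loci with at least 10% of a member's single-place reads. The loci 9-qA5.3-1495 and 11-qE1-9443, and the relatives named, were picked after their values were seen.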

Additional observations from a re-analysis of the deposited data

How the results depend on the processing

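The count of transposon families called between knockdown and wild type was 0 and ranged from 0 to 53 when 1 library was left out: 8 of 777 without knockdown replicate 1, with 4 higher and 4 lower, and 53 of 781 without knockdown replicate 2, with 12 higher and 41 lower. Without knockdown replicate 2 the log2 differences of the members were −6.32 (LTR91), −6.37 (ERVB5_2-LTR_MM), −5.44 (RLTR20B3), −5.17 (MLT2F), −5.87 (RLTR30B_MM) and −5.64 (RLTR19C), with the lone knockdown library assumed to vary like the wild type. That contrast holds the values by which the members were chosen, so these values follow from the choice and are a description only. Without knockdown replicate 1 the differences turned to 0.0898 for RLTR20B3, 0.22 for MLT2F, 0.32 for RLTR30B_MM and 0.43 for RLTR19C. With a replicate block 1 family was called, not a member. Deviations of same-numbered libraries had a correlation of 0.24 over 793 families, and 2 pairs do not show that the numbers pair the animals. The summed level in knockdown replicate 1, 1.88% of the lowest other library, was 6.72% with reads of 18 to 40 nt and 7.41% by distinct sequences. Over 36 values of single members under the alternatives, the level lay between 1.07% and 18.8%, with 28 under 5%. The highest was RLTR20B3 with 18 to 40 nt. With reads of 18 to 40 nt 2 of 6 members were under 5%, and by distinct sequences also 2 of 6. By distinct sequences 77.6% opened with U in the other 3 libraries, against 93.0% by reads, and the mean length was 28.05 nt against 27.87 nt. The 10 leading sequences held 25.3% of single-place reads, against 21.5% of all reads. The mean difference in first-base U from other LTR families lay between 5.16 and 7.63 percentage points in all alternatives run. By distinct sequences it was 5.16 ± 5.13 percentage points (SD, n = 4) and uneven between libraries. It was 12.4 and 1.60 in the knockdown, against 5.14 and 1.48 in the wild type, so the library with fewest reads carried much of it. That in mean length turned to −0.00268 nt without knockdown replicate 2, −0.059 nt without wild type replicate 1 and −0.0259 nt without wild type replicate 2, and was 0.135 nt without knockdown replicate 1. Scaling to mature miRNA reads moved the median log2 difference of all families to −0.18. The causes of these shifts were not tested. With 8 to 62 reads per family, knockdown replicate 1 limits every share given for it.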

Other observations

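The RLTR30B_MM copy on chromosome 8 was lower in knockdown replicate 1 than most of its locus, a contrast looked at after its values were seen. The locus 8-qC5-2209 was divided into 4 parts of equal length from its 5' end. Single-place reads on its strand, named after an LTR family or a piRNA locus, were counted in each part. The first had 51 and 217 reads in the knockdown, against 65 and 102 reads in the wild type, and knockdown replicate 1 stood at 90.7% of the lowest other library in RPM. The next 2 stood at 92.8% and 97.4%. The last part holds the copy, and its count includes the copy's own reads. This part had 27.8 and 166 RPM in the knockdown, against 54.0 and 96.5 RPM in the wild type, and stood at 51.4%. The copy itself, with 7 and 356 reads in the knockdown, against 147 and 232 reads in the wild type, stood at 5.50%. Its difference from that part was not tested. Had this copy been kept like most of its locus, the family would have had more reads in knockdown replicate 1. Such a family was less likely to be chosen, so the low value of the copy follows in part from the choice.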
